A study of Mus musculus with 4 samples.

Results

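Hox genes of the Hoxa, Hoxb, Hoxc and Hoxd clusters were followed in cerebral cortex RNA of adult mice, as the probe sets whose gene symbol in the authors' deposited table is Hoxa, Hoxb, Hoxc or Hoxd with a number. This rule found 52 of the 45101 probe sets, which carry 36 of the 20802 gene symbols. Of the 39 Hox genes that RefSeq lists for the mouse, 35 had a probe set. Hoxa6, Hoxb8, Hoxc11 and Hoxc12 had none under those names and were not analysed here. The remaining symbol, Hoxa11as, is the older name of Hoxa11os, a non-coding RNA from the strand opposite Hoxa11.

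Hox genes encode homeodomain transcription factors that stand in clusters and give cells their position along the head-to-tail axis. In the mouse embryo the low-numbered genes start at the hindbrain and the high-numbered ones act in the lumbar, tail and limb regions, while the forebrain, from which the cortex comes, lies in front of the domain of all of them. Hox proteins bind DNA together with PBX and MEIS cofactors, and Polycomb complexes keep the clusters silent where they are not in use.

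The arrays came from female C57BL/6J mice, an inbred strain, at an age of 90 days. Dams drank nicotine or saccharin from conception, the young were taken off either solution at 21 days of age, and no allele or transgene is named for any group. RNA of 4 animals was pooled per hybridisation sample, labelled with biotin and read on Affymetrix arrays, and the labels state 5 pools per group. The 4 arrays analysed here are numbered 1 and 2 within each title. Titles and source names state opposite exposures for every array, so the groups are called titled nicotine and titled saccharin (n = 2 each), and a positive difference means a higher value in titled nicotine. The labels do not settle which is right. Fold changes in the authors' deposited table ran mostly against the differences by title (correlation -0.871 across probe sets, which are not independent replicates). That the 2 arrays of a title come from separate pools is not stated, and the p-values therefore cover only the spread between arrays, possibly a technical one.

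On the log2 scale the lowest value was 2.10 on each array, the array medians lay between 3.88 and 4.09 and the highest values between 16.51 and 16.55. A probe set was counted as at the lowest value when it stood within 0.01 of the minimum of that array. Gene lists were read at the probe set of each gene with the highest mean. Marker genes went with the cortex label. All 12 genes of a forebrain and cortex list reached the median of all probe sets, 4.04, with Tbr1 between 11.54 and 12.19. Of all 20737 genes read in this way, 58.9% reached it. Over the 23 probe sets of the forebrain and cortex list, 16 reached that median and 4 were at the lowest value on all 4 arrays. Of 15 measured genes of hindbrain and spinal cord, 8 were at the lowest value on all 4 arrays, among them Phox2a, Tlx3, Slc6a5, En1 and Gbx2. Over all genes, 4650 of 20737 were at the lowest value on all 4 arrays. Off it on all 4 arrays were 6 of the 15 (40.0%), against 74.6% of all genes. One of the 15 hindbrain and spinal cord genes, Dbh, reached the median level, at 7.09 to 7.75.

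Most Hox probe sets stayed at the lowest value. On all 4 arrays, 46 of 52 (88.5%) did so, against 26.4% of all 45101 probe sets. The 4 arrays gave similar counts, with 47 and 47 Hox probe sets at the lowest value on titled nicotine 1 and 2, 46 on titled saccharin 1 and 48 on titled saccharin 2. Of the 208 Hox values, 174 equalled the minimum exactly, and 4 were above 3, all 4 of them from 1 Hoxa5 probe set. In 30 of the 36 genes each probe set was at the lowest value on all 4 arrays. In bulk RNA, fewer cells of a type and less RNA per cell cannot be told apart, and a value at the minimum shows only that the probe set read no signal above it.

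**Figure D1:**
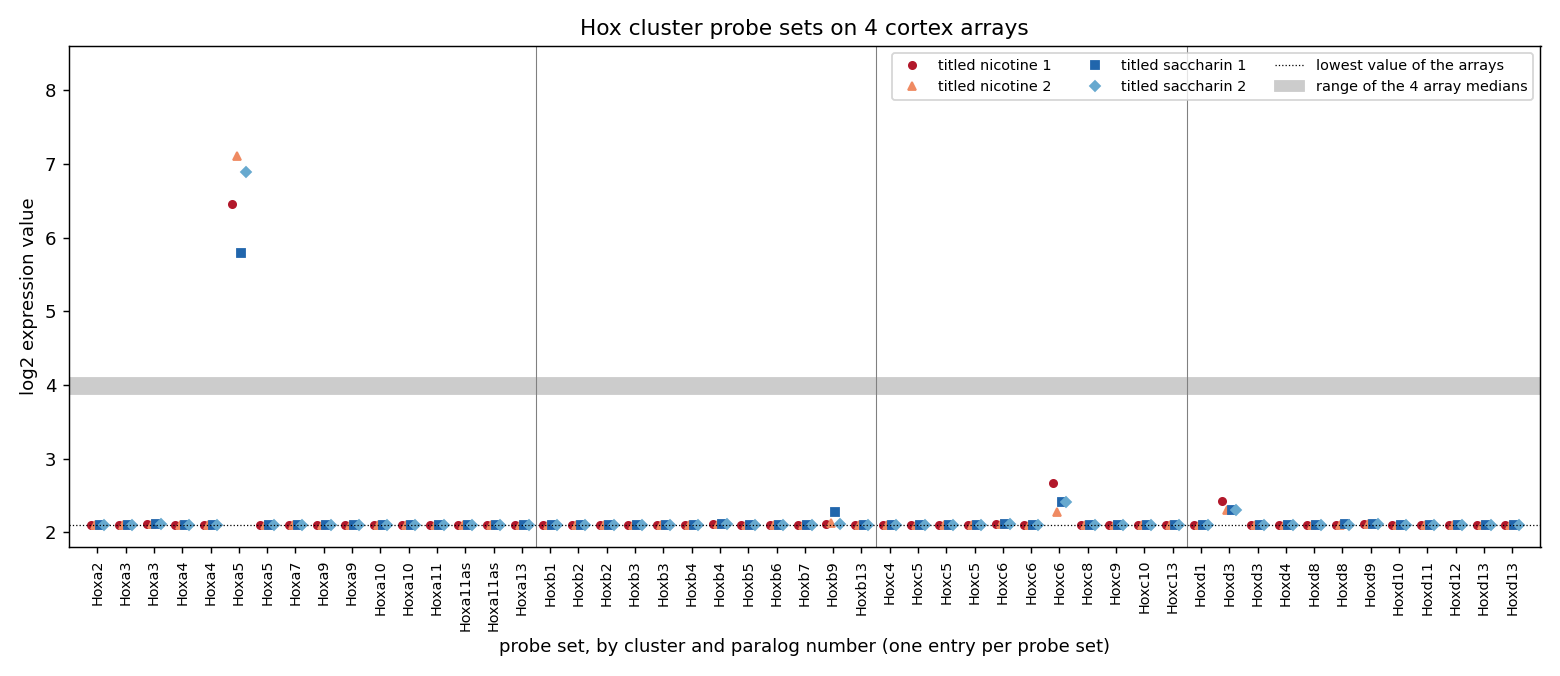
Log2 expression value (vertical axis) of 51 of the 52 Hox probe sets, ordered by cluster and paralog number, with 1 point per array. Grey lines separate the Hoxa, Hoxb, Hoxc and Hoxd clusters, the dotted line is the lowest value of the arrays and the grey band the range of the 4 array medians. A single probe set, of Hoxa5, stands above the band, at 5.79 to 7.11.

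The low-numbered genes, paralogs 1 to 4, pattern the hindbrain and the pharyngeal arches. Of their 18 probe sets, 16 were at the lowest value on all 4 arrays. These included the probe sets of Hoxb1, which acts in hindbrain segmentation, of Hoxa2, which gives the second pharyngeal arch its identity, and of Hoxd1. Both Hoxb2 probe sets, both Hoxb3 probe sets, both Hoxa4 probe sets, Hoxc4 and Hoxd4 were there as well. Of the Hoxb4 probe sets, 1460379_at read 2.11 on every array and 1451761_at equalled the minimum on 3 arrays and stood 0.00106 above it on titled saccharin 2. Those 2 count as at the lowest value, and the first of them, 0.00815 above the minimum, was the member just inside the tolerance.

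Hoxa3 and Hoxd3 gave the 2 exceptions among the low-numbered genes. Hoxa3, which is needed for the thymus and parathyroid, had the probe set 1427433_s_at at the lowest value and 1452421_at at 2.12 on all 4 arrays, with the same digits on each, 0.0143 above the minimum and so just outside the tolerance. Hoxd3, a gene of the upper neck vertebrae, had 1437664_at at the lowest value, while 1421537_at read 2.43 on titled nicotine 1 and 2.30 on titled nicotine 2, titled saccharin 1 and titled saccharin 2. Titled nicotine 1 was thus the high array, the other 3 agreed to the last digit, and the groups shared the value 2.30. The difference of 0.062 (SE 0.0575, n = 2 per group) did not pass limma (adjusted p = 1).

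The middle genes, paralogs 5 to 8, act in the neck and trunk. Of their 15 probe sets, 12 were at the lowest value on all 4 arrays, among them those of Hoxa7, Hoxb5, Hoxb6, Hoxb7 and Hoxc8, the last a gene of brachial motor neurons in the spinal cord, and all 3 of Hoxc5. Hoxa5 is a gene of the cervical and upper thoracic region that is needed for the lung and trachea. Its probe set 1448926_at was at the lowest value on all 4 arrays. Its other probe set, 1443803_x_at, read 6.46 and 7.11 on titled nicotine 1 and 2 and 5.79 and 6.90 on titled saccharin 1 and 2. No value of this probe set came near the minimum, the highest and the second highest stood on the arrays numbered 2, and the 2 groups overlapped. The suffix _x_at is Affymetrix's mark for a probe set with probes that may also match other transcripts. The array's probe sequences were not used here, so which transcripts this one reads was not tested.

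The mean of the Hoxa5 probe set was 6.79 ± 0.458 for titled nicotine and 6.34 ± 0.780 for titled saccharin (SD, n = 2 each). The difference of 0.44 (SE 0.594) was smaller than its error, and limma gave an adjusted p of 1. It was 0.67 within number 1 and 0.21 within number 2. Between numbers, number 2 read higher than number 1 by 0.65 in titled nicotine and by 1.10 in titled saccharin. Of the 22551 probe sets that reached the median level, 12.3% read higher on number 2 by at least 0.65 in both titles. Leaving out titled saccharin 1 turned the difference to -0.11, and over the 4 fits with 1 array left out it ranged from -0.11 to 0.99.

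Some other measures moved the same way between the numbers in both titles, and others did not. The Actb measure and the sums over genes of meninges and fibroblasts, blood cells, hindbrain and spinal cord, and forebrain and cortex did so. Of these, the meninges and fibroblast sum rose from number 1 to number 2 and the rest fell. The choroid plexus and vessel wall sums did not move the same way in both titles. The part of all these measures in the Hoxa5 values was not tested. The 3′ probe set of Actb minus its 5′ probe set, which falls as transcripts are more intact or labelled further, was 2.39 and 2.38 on titled nicotine 1 and titled saccharin 1, and 1.25 and 1.73 on titled nicotine 2 and titled saccharin 2. The summed log2 level of 12 genes of meninges and fibroblasts, 0 of them at the lowest value on all 4 arrays, was 56.1 and 60.2 in titled nicotine 1 and 2 and 57.7 and 60.1 in titled saccharin 1 and 2. The sum does not stand for most of the list. The median shift of its genes from number 1 to number 2, averaged over the titles, was 0.012, and 3 of the 12 held identical values. For 10 choroid plexus genes the sum was 39.1 and 43.4 in titled nicotine and 39.5 and 36.2 in titled saccharin. Of the 10, 4 were at the lowest value on all 4 arrays, Otx2, Slc4a5, Aqp1 and Cldn2. Off it on all 4 arrays were 5, and 3 of the 10 reached the median level. The median shift of the 10 from number 1 to number 2, averaged over the titles, was 0.0047. Sums over 10 vessel wall genes lay between 60.7 and 61.7, with 0 at the lowest value. For 12 genes of blood cells and their precursors the sum was 49.9 and 46.8 in titled nicotine 1 and 2. It was 47.3 and 47.0 in titled saccharin 1 and 2. Of the 12, 6 were at the lowest value on all 4 arrays, with Hba-a1, Cd3e, Cd79a, Elane and Mpo among them. The other 6 were off it on all 4 arrays, and 3 of the 12 reached the median level. The 15 hindbrain and spinal cord genes summed to 40.5 and 39.6 in titled nicotine 1 and 2 and 40.4 and 39.7 in titled saccharin 1 and 2. For the 12 forebrain and cortex genes the sums were 122.6 and 121.6 in titled nicotine and 123.1 and 121.6 in titled saccharin. The median shift from number 1 to number 2, averaged over the titles, was 0 in the blood and hindbrain lists and -0.27 in the forebrain list.

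**Figure D2:**
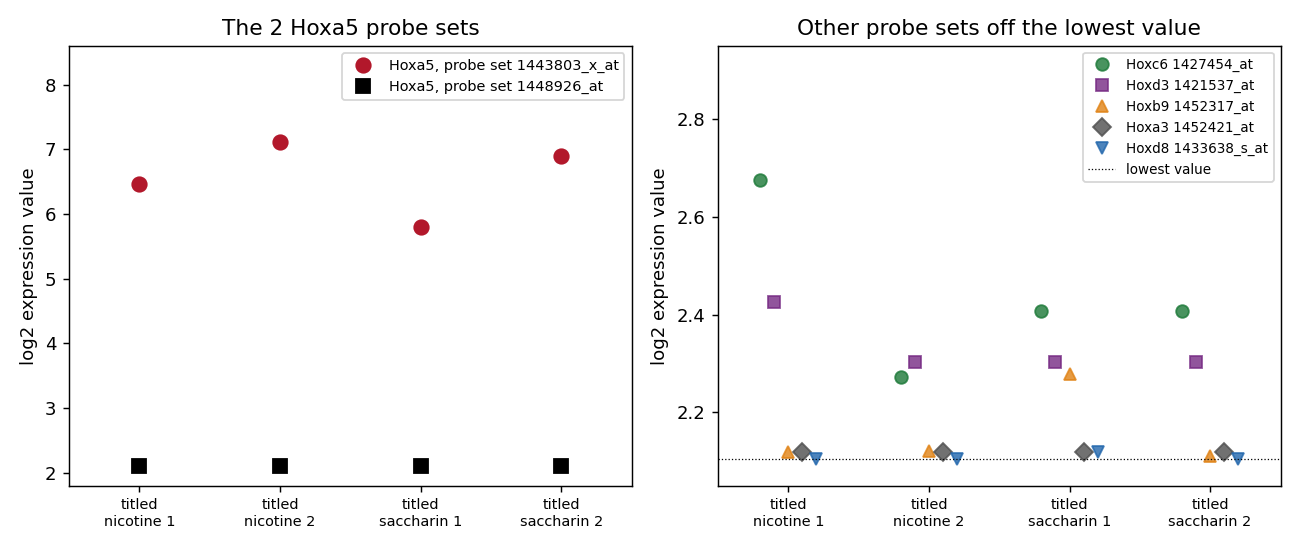
Log2 expression value (vertical axis) on each of the 4 arrays (horizontal axis, shifted slightly so that points do not hide each other). The left panel shows the 2 Hoxa5 probe sets, one between 5.79 and 7.11 and the other at 2.10 on every array. The right panel, on a narrower scale, shows the other 5 probe sets that left the lowest value on at least 1 array, all below 2.7.

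Hoxc6, a gene of the forelimb level of the trunk and spinal cord, had 3 probe sets. One of them, 1427454_at, read 2.68 and 2.27 on titled nicotine 1 and 2 and 2.41 on both arrays titled saccharin. The 2 titled nicotine values enclosed those of titled saccharin, which were identical. The difference was 0.066 (SE 0.187, limma adjusted p = 1), 0.27 within number 1 and -0.14 within number 2. The other Hoxc6 probe sets, 1427361_at at 2.11 and 1427362_x_at at 2.10, did not vary between arrays. Of the Hoxd8 probe sets, 1431099_at was at the lowest value throughout and 1433638_s_at read 2.12 on titled saccharin 1 and 2.10 on the other 3 arrays, a difference of -0.0071 (SE 0.00673, limma adjusted p = 1).

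The high-numbered genes, paralogs 9 to 13, act in the lower trunk, tail and limbs. Of their 17 probe sets, 16 were at the lowest value on all 4 arrays. Among them were both probe sets of Hoxa9, a gene of blood stem cells, and both of Hoxa10, which patterns the uterus and lumbar vertebrae. Hoxa11 and Hoxd11 of the forearm, Hoxd10 of the lumbar spinal cord, Hoxa13 and Hoxd13 of the digits, Hoxb13 of the tail and prostate and Hoxc13 of hair and nails stood there too, as did Hoxc9, Hoxc10, Hoxd9 and Hoxd12. The exception was Hoxb9, a gene of the thoracic region, whose single probe set read 2.12 on both arrays titled nicotine, 2.28 on titled saccharin 1 and 2.11 on titled saccharin 2. Titled saccharin 1 was the high array and titled saccharin 2 the low one, so the groups overlapped. The difference was -0.075 (SE 0.0773, limma adjusted p = 1), -0.16 within number 1 and 0.0089 within number 2. Both probe sets of the antisense Hoxa11as equalled the minimum on all 4 arrays.

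By cluster, the probe sets at the lowest value on all 4 arrays were 15 of 17 for Hoxa, 11 of 12 for Hoxb, 10 of 11 for Hoxc and 10 of 12 for Hoxd. By probe set type they were 40 of 44 with the plain suffix _at and 2 of 3 with _x_at, while over the whole array they were 29.4% of the plain ones and 19.8% of those with _x_at. Of the 14 genes with more than 1 probe set, 9 had each of them at the lowest value. In 4 genes, Hoxa3, Hoxa5, Hoxc6 and Hoxd3, 1 probe set was off the lowest value on all 4 arrays while another stayed at it.

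Identical digits on all 4 arrays were the rule among Hox probe sets and not limited to the minimum. 42 Hox probe sets equalled the minimum on all 4 arrays, and 4 more held 1 value above it on all 4, those of Hoxa3, Hoxb4, Hoxc6 and Hoxd9 that read between 2.11 and 2.12. Together these 46 make 88.5% of the Hox probe sets, against 32.1% of all probe sets with 1 value on all 4 arrays. They are not the same 46 as those within 0.01 of the minimum, since Hoxa3 1452421_at is in the first set and Hoxb4 1451761_at in the second. Where values are identical the difference between groups is 0 by construction.

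The comparison by title asks whether nicotine before and after birth leaves a difference in adult cortex after a nicotine-free interval. No Hox probe set passed limma at an adjusted p of 0.05, against 0.00222% of all probe sets, which is 1 probe set. At an unadjusted p under 0.05 in the same limma fit there were 0 Hox probe sets, against 347 of all 45101. Both background shares are themselves near 0, so neither count of 0 is a result about Hox genes. The difference was exactly 0 in 46 Hox probe sets, positive in 3 (Hoxa5, Hoxc6 and Hoxd3) and negative in 3 (Hoxb4, Hoxb9 and Hoxd8). The median was 0 over the Hox probe sets and 0 over all probe sets. Groups did not overlap in 0 Hox probe sets, against 5.37% of all. The 46 Hox probe sets with 1 value on all 4 arrays could not separate the groups. This count of 0 was thus largely fixed beforehand and is no result about Hox genes. With 2 arrays against 2, an exact two-sided permutation test cannot give a p below 0.333.

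In the authors' deposited table, 0 of the 52 Hox probe sets had an adjusted p under 0.05, against 0.031% of all probe sets. A log2 fold change other than 0 was listed in the authors' deposited table for 6 Hox probe sets. For Hoxa5 1443803_x_at the authors' deposited table gave a log2 fold change of -0.20 at a mean level of 5.54, the latter below the lowest value of this probe set on the 4 arrays, 5.79. In the authors' deposited table Hoxa3 1452421_at had -0.026 (p = 0.0740 and adjusted p = 1 from the authors' limma fit) and Hoxb13 had -0.050 at a mean level of 2.15. The lowest mean level in the authors' deposited table was 2.14 and not 2.10, and 47 Hox probe sets were within 0.01 of it. Hoxa5 was the 1 Hox probe set whose mean level was above 3 there. How many arrays lie behind that table, and which group was subtracted, is not given in the sources used here.

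Partners and regulators of Hox proteins were read on the same arrays. Of 20737 genes taken in the same way, 74.6% were off the lowest value on all 4 arrays and 58.9% reached the median level. All 9 PBX and MEIS family genes were off the lowest value on all 4 arrays and reached the median level. Pbx2 differed by -0.13 (SE 0.127), Pknox2 by 0.14 (SE 0.160) and Pbx4 by 0.26 (SE 0.322). None of the 9 passed limma in either direction, and their median difference was -0.0017, beside 0 over all genes. The list's summed level was 77.7 and 75.1 in titled nicotine 1 and 2 and 78.1 and 74.5 in titled saccharin 1 and 2.

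Of 12 measured genes of Polycomb repressive complex 2, which methylates histone H3 at lysine 27, 11 reached the median level and Phf19 was at the lowest value on all 4 arrays. The catalytic subunit gene Ezh1 read 9.79 and 9.66 in titled nicotine 1 and 2 and 9.45 and 9.77 in titled saccharin 1 and 2. The other catalytic subunit gene, Ezh2, read 4.44 and 4.05 against 5.11 and 4.07. In both genes the groups overlapped. Ezh1 differed by 0.12 (SE 0.158), Ezh2 by -0.34 (SE 0.515), Aebp2 by 0.012 (SE 0.0175) and the histone-binding subunit gene Rbbp7 by -0.065 (SE 0.123). Of the 12, 0 passed limma, and the median difference was 0.0031.

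Of 19 genes of Polycomb repressive complex 1, the ubiquitin ligase complex of the same system, 17 reached the median level and 0 passed limma, with a median difference of -0.0023. Bmi1 differed by -0.050 (SE 0.0469), the catalytic subunit gene Rnf2 by 0.056 (SE 0.0561), Phc1 by 0.033 (SE 0.0402) and Kdm2b by 0.18 (SE 0.222). Among 13 activators and insulator factors of the clusters, 10 were off the lowest value on all 4 arrays (76.9%) and 7 reached the median level (53.8%), shares near those of all genes. The other 3, Cdx1, Cdx4 and Rara, were at the lowest value on all 4 arrays. The retinoic acid receptor gene Rarb differed by -0.13 (SE 0.183), Psip1 by 0.068 (SE 0.112), the insulator protein gene Ctcf by -0.15 (SE 0.274) and the cohesin subunit gene Rad21 by 0.12 (SE 0.244). None of the 13 passed limma, and their median difference was 0.

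Homeobox genes outside the clusters were mixed. Of their 164 probe sets, 69 (42.1%) were there on all 4 arrays. Taking for each of 95 genes the probe set with the highest mean, 40 were at the lowest value on all 4 arrays. Over all genes, 4650 of 20737 were. The 40 included the cluster neighbours Evx1 and Evx2 and the genes Cdx1, Cdx4, Gsx1, Gsx2 and Pdx1, relatives of the Hox genes. Off it on all 4 arrays were 47, among them the relatives Cdx2, at 2.43, and Meox1 and Meox2, each at 2.13. 24 of the 95 reached the median level, against 58.9% of all genes. Zeb1 differed by -0.084 (SE 0.0533), Msx1 by 0.27 (SE 0.184) and Prrx1 by -0.22 (SE 0.215). None of the 95 passed limma, and the median difference was 0.

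**Figure D3:**
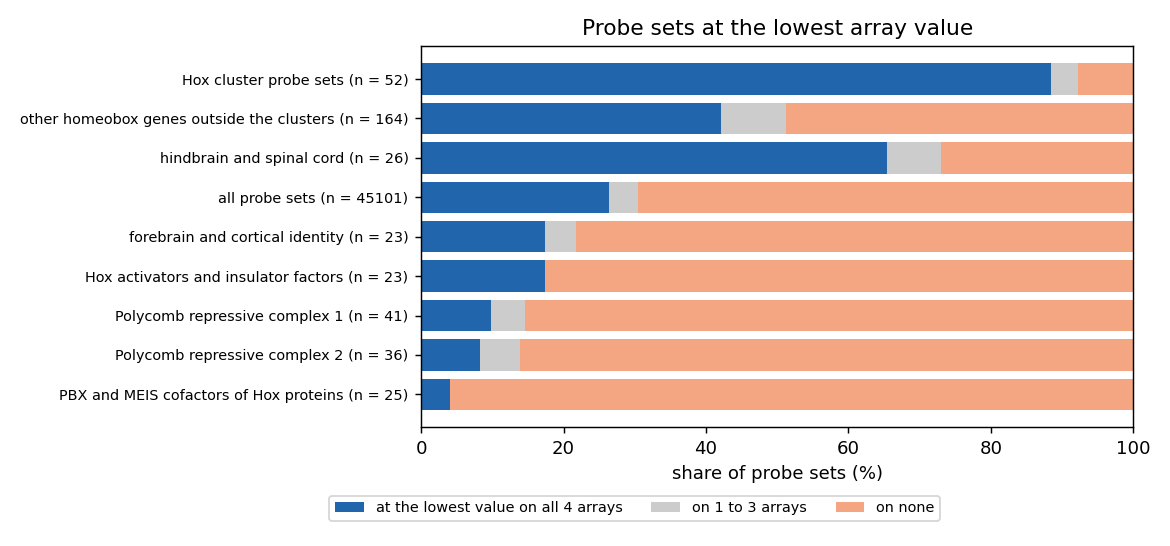
Share of probe sets (horizontal axis, in percent) at the lowest value on all 4 arrays (blue), on 1 to 3 arrays (grey) and on none (orange), for the Hox clusters, 7 gene lists and all probe sets, with the number of probe sets in brackets. The blue share is 88.5% for the Hox clusters, 42.1% for other homeobox genes and 26.4% for all probe sets.

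Transcripts that share the clusters or border them were looked up by their order in RefSeq, a choice made after the values were seen. Inside the clusters 4 non-coding genes had 6 probe sets, of which 5 were at the lowest value on all 4 arrays, the 2 of Hoxa11as among them. The sixth, of Hoxb5os, read 2.56 on all 4. Among the 8 nearest coding genes on the outer sides, with 13 probe sets, 4 probe sets were at the lowest value on all 4 arrays and 6 reached the median level. Over the whole array 26.4% of probe sets were at the lowest value on all 4 arrays, and 22551 of 45101 reached the median level. The counts of the bordering genes lie near those shares and are no result about these genes. Skap2, which borders the Hoxa cluster, read between 8.19 and 8.26 at 1418895_at and between 5.31 and 6.08 at 1457097_at. At 1460623_at it read 9.60 and 8.49 in titled nicotine 1 and 2 and 9.41 and 8.79 in titled saccharin 1 and 2, with the high values on the arrays numbered 1. Mtx2, next to Hoxd1, read between 10.31 and 10.64. Calcoco1, which borders the Hoxc cluster, held 2.98 on all 4 arrays at one probe set, and at the other, 1428513_at, read 4.54 and 7.75 in titled nicotine 1 and 2 and 4.81 and 7.14 in titled saccharin 1 and 2, with the high values on the arrays numbered 2.

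RefSeq promoter windows, 250 bases before to 50 after the start of transcription in mouse GRCm38.p6, were found for 20 of the 36 symbols, as 22 windows. They held a median of 14.5 CG dinucleotides, with a range of 4 to 45, and 68.2% held at least 10, against a median of 7 and a share of 43.5% over 32807 windows of the same length. CG-rich sequence is where Polycomb complexes are known to act, which was not measured here. The windows of 3 genes are printed to set the Hoxa5 window, whose gene has a probe set far above the minimum, beside those of Hoxd3, off the minimum by a little, and of Hoxa7, a Hoxa gene at the minimum, with each CG in capitals.
Hoxa5 (chr6:52204538-52204837, minus strand): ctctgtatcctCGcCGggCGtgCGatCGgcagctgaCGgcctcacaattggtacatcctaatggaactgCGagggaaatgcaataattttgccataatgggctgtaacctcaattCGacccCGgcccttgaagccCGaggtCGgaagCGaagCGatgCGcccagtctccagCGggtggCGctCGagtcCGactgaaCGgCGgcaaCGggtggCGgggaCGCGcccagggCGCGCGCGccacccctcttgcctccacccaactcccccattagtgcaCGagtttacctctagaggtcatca
Hoxd3 (chr2:74711743-74712042, plus strand): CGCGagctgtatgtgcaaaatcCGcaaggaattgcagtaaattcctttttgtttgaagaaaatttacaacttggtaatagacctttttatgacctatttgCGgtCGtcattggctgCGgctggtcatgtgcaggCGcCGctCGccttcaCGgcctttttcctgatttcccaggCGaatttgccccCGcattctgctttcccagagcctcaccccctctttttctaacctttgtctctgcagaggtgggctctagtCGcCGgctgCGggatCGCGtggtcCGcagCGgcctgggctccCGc
Hoxa7 (chr6:52218524-52218823, minus strand): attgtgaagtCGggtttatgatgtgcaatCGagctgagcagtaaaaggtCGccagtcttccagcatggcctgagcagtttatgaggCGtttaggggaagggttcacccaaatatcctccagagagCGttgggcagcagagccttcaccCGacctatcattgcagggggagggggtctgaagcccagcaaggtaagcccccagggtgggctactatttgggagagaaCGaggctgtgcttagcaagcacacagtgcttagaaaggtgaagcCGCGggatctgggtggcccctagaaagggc
The Hoxa5 window held 29 CG dinucleotides at a GC content of 61.7%, that of Hoxd3 held 20 at 54.0% and that of Hoxa7 held 9 at 55.7%. Windows richer in CG also stood before genes at the lowest value, with 45 for Hoxa13 and 37 for Hoxd13. A search on both strands covered 3 sets of letters. TGATNNAT, the form of a combined PBX and Hox site, was in 3 of the 22 windows (13.6%), those of Hoxa2 and Hoxb1 and one of Hoxd11, and in 8.86% of all windows. TATAAA was in 3 (13.6%), those of Hoxd13 and Hoxd4 and one of Hoxa10, and in 13.6% of all. TAATTA, a core that many homeodomains bind, was in 2 (9.09%), both of Hoxd11, and in 5.30% of all. No search found its letters in the Hoxa5, Hoxd3 or Hoxa7 window.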

How the data were processed

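RNA was extracted in phenol and on columns, pooled from 4 animals and read on Affymetrix arrays, per the labels' protocols. The array values are log2 expression for each probe set, as deposited and without further scaling here; how background was corrected and probes were normalized and summarised is not given in the sources used here. Per the file headers, the authors' deposited table gives log2 fold changes and mean log2 levels, p-values before and after adjustment, and a moderated t and log odds, each a score from that fit. The submitters' processing notes name limma and give no version. Groups come from the titles, which the source names contradict. Members and gene lists were chosen with earlier results of these data known.

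Values within 0.01 of the array's minimum counted as lowest. limma 3.58.1 in R 4.3.3 was fitted to all 45101 probe sets on 4 arrays, without a block or filter, with Benjamini-Hochberg adjustment at 0.05. A run on simulated arrays, with independent noise on every probe set, checked the sign and size of large added differences. Those arrays had no lowest value and no identical values, so the run did not test the fit on such probe sets. A list's gene was read at its probe set with the highest mean. Hox probe sets named in the text were those off the lowest value, those with the smallest p and those of genes whose probe sets disagree; from each list, the 4 genes with the lowest p among those reaching the median level were named, and some genes are not reported here. Other genes named among the lists, the markers and the neighbours were chosen after their values were seen. Alternatives were the tolerance, probe set type, 1 result per gene, quantile normalization, centring on the median, 2 filters, the trend and robust model, the number as a block, the authors' adjusted p and leaving out each array. Probe sets differ in brightness, so the median over all of them serves only as a line for low values. The number of arrays limits the precision.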

Additional observations from a re-analysis of the deposited data

How the results depend on the processing

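The 46 Hox probe sets at the lowest value became 42, 48 and 50 with a tolerance of 0.001, 0.1 and 0.5, 46 when an identical value on all 4 arrays was asked for (an alternative chosen after seeing the data), 40 of 44 plain probe sets, and 30 when counted once per gene. Without 1 array the count was 46 to 47. Hox calls stayed at 0 in limma under every alternative run and in the authors' deposited table. The filter at the median level kept only 1 Hox probe set, and the filter on the lowest value kept 5. On the deposited values 46 Hox probe sets were identical on all 4 arrays and could not be called. The count of 0 was thus largely fixed beforehand. The arrays share only a number: the shifts between numbers correlated at 0.804 over probe sets in the 2 titles, too few pairs to establish a pairing, and with the number as a replicate block limma called 0 Hox probe sets and 0 of all (2217 at an unadjusted p under 0.05, 0 of them Hox). The block took the SE of Hoxa5 from 0.594 to 0.197 (adjusted p = 1). Calls over all probe sets were 1 in the main comparison, 379 without titled nicotine 1, 277 without titled saccharin 1 and 0 in the other fits. List calls were 0 in every fit on all the arrays. Without titled nicotine 1, the list gene Nkx2-2 was left with the same 6.42 on both arrays titled saccharin and a lone 6.76. That fit holds no spread between arrays for Nkx2-2, so a call there carries no measure of error.

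Centring raised every difference, and so the median of all differences, by 0.054, which turned Hoxd8 to 0.047, Hoxb4 to 0.053 and Bmi1 to 0.0041. With 1 array left out the differences ranged from -0.11 to 0.99 for Hoxa5, -0.14 to 0.27 for Hoxc6, -0.16 to 0.0082 for Hoxb9, -0.26 to 0.0081 for Pbx2, -0.076 to 0.60 for Pbx4, -0.040 to 0.27 for Ezh1, -0.0057 to 0.029 for Aebp2, -0.86 to 0.18 for Ezh2, -0.18 to 0.049 for Rbbp7, -0.0024 to 0.069 for Phc1, -0.030 to 0.39 for Kdm2b, -0.33 to 0.064 for Rarb, -0.031 to 0.17 for Psip1, -0.44 to 0.14 for Ctcf, -0.067 to 0.31 for Rad21 and -0.45 to 0.015 for Prrx1. Others kept their sign or reached 0, with ranges of 0 to 0.12 for Hoxd3, -0.014 to 0 for Hoxd8, -0.0011 to 0 for Hoxb4, 0.00061 to 0.29 for Pknox2, 0.0084 to 0.10 for Rnf2, -0.086 to -0.013 for Bmi1, 0.10 to 0.44 for Msx1 and -0.13 to -0.042 for Zeb1. In these fits the lone array is assumed to vary like the other group. The cause of the turns in the fits with 1 array left out was not tested. Of 233 differences of named genes recomputed, 22 changed sign.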

Other observations

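Identical values on all 4 arrays also occurred above the minimum. Of the 14483 probe sets with 1 value on all 4 arrays, 10466 equalled the minimum, 4017 stood above it and 231 reached the median level, up to 14.67. Of the 12 forebrain and cortex genes, each at its brightest probe set, 1 did so: Neurod2, a transcription factor of cortical neurons singled out after its values were seen, held 9.13 on all 4 arrays. En2, a hindbrain gene chosen in the same way, held 3.02. A difference of 0 in such a probe set carries no measure of the spread between arrays.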
